A study of Aspergillus nidulans with 6 samples.

Results

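AtfA peaks fell into 707 merged regions of the *Aspergillus nidulans* genome, and 257 of these regions (36.4%) carried a peak in only 1 or 2 of the 6 ChIP-seq libraries. They were chosen on the measured peaks themselves: the peaks of all 6 lists were merged wherever they overlapped by at least 1 bp, and a merged region was kept when the peaks in it came from 1 library (170 regions) or from 2 libraries (87 regions). The other regions were held by 3 to 5 libraries (200 regions) or by all 6 (250 regions). How many libraries hold a region is therefore how these regions were picked and is not itself a result. Since the number of libraries depends on which peaks passed the peak caller's cutoff, rank within a list is tied to the choice as well, so scores and widths are given as a description with no test.

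All 6 libraries came from conidia, the asexual spores, of 1 strain, *atfA*::3XFLAG, which carried pyrG89, pyroA4 and veA+, had the *atfA* gene deleted with AfupyrG+ as marker, and was complemented with FLAG-tagged *atfA* (atfA-3XFLAG::pyroA+) under the native *atfA* promoter and the trpC terminator. The tagged protein was precipitated with an anti-FLAG antibody. The groups were Untr. (2 d), untreated conidia of 2 d surface cultures, Untr. (3 d), untreated conidia of 3 d cultures, and MSB Tr. (3 d), conidia of 3 d cultures treated with 0.04 mM MSB (menadione sodium bisulfite, which generates superoxide by redox cycling), with 2 libraries in each group. Below, the libraries are called untreated 2 d, untreated 3 d and MSB replicates 1 and 2. The 6 lists held 434 to 473 peaks, peaks were called in each library on its own, and the lists carry no read counts, so the depth behind a peak is unknown. The labels number the 2 libraries of a group but do not say that they came from separate cultures, so the tests below measure the spread between libraries.

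AtfA is a bZIP transcription factor related to Atf1 of fission yeast and to mammalian ATF2, and proteins of this family bind DNA as dimers at sites of the CRE type. In aspergilli it works downstream of the stress-activated kinase HogA/SakA, and it is known for the stress tolerance and viability of conidia. A ChIP-seq peak marks a place where fragments that came down with the tagged protein pile up, and a place close to the caller's cutoff can be listed in one library and missed in the next. No sequence of the genome in these coordinates was used here, so no binding site is shown, and positions below are those of the deposited lists, on the chromosomes of strain FGSC A4 (assembly version not stated in the lists).

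Untreated libraries supplied most of the regions that a single library held. Conidia of untreated 2 d cultures contributed 42 regions from replicate 1 and 34 from replicate 2, and those of untreated 3 d cultures contributed 51 from replicate 1 and 17 from replicate 2. The MSB libraries contributed 12 and 14. Both MSB libraries thus lay below every untreated library, although untreated 3 d replicate 2 came close to them and the 2 libraries of untreated 3 d were the farthest apart of any replicates. The untreated libraries pooled 2 d and 3 d cultures while both MSB libraries were of 3 d, so treatment was mixed with culture age. Among the 3 d libraries alone the counts were 12 and 14 with MSB and 51 and 17 without. The mean was 13 ± 1.41 (SD, n = 2) in MSB libraries and 36 ± 14.4 (SD, n = 4) in all untreated ones, a difference of -23 regions per library. In an exact permutation test over the 15 choices of 2 libraries of 6 (two-sided) p was 0.133, and with this design p cannot go below 0.0667. The difference was not separable from the spread between libraries. With only the 300 best peaks of each list it was -12 (exact permutation p = 0.0667). The range of scores moved with it: the highest score was 4.47 and 2.75 times the lowest one in the MSB lists and between 6.85 and 10.9 times in the untreated lists. Its part in the difference was not tested.

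**Figure D1:**
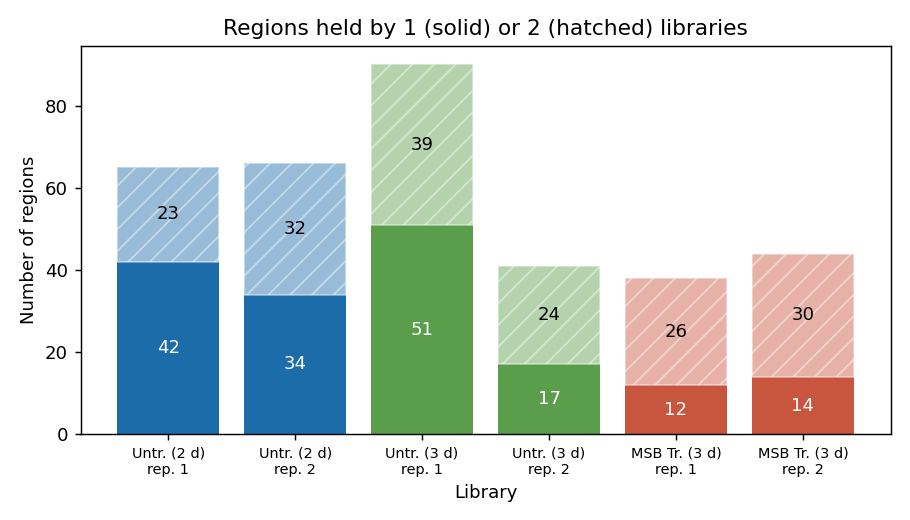
Number of regions (y axis) held by 1 library only (solid) or by 2 libraries only (hatched, counted in both) for each of the 6 libraries (x axis; blue untreated 2 d, green untreated 3 d, red MSB). The solid bars reach 51 in untreated 3 d replicate 1 and are lowest in the MSB libraries at 12 and 14, while the hatched part stays between 23 and 39.

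Regions held by exactly 2 libraries were spread more evenly. They numbered 23 and 32 in the untreated 2 d libraries, 39 and 24 in the untreated 3 d libraries, and 26 and 30 in the MSB libraries. Untreated 3 d replicate 1 thus headed both counts, and 90 of its 473 peaks (19.0%) lay in a region that at most 1 other library shared. The lowest share was that of MSB replicate 1, with 38 of 453 peaks (8.39%). By condition, 183 of the 257 regions (71.2%) came from untreated libraries alone, which make up 4 of the 6 libraries. Another 34 (13.2%) came from MSB libraries alone, and 40 (15.6%) joined 1 untreated and 1 MSB library.

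The pairs of libraries that shared these regions did not follow the conditions closely. Both libraries of 1 condition held 26 of the 87 regions (29.9%), and the other 61 joined libraries of different conditions. Within a condition, 4 regions were held by the untreated 2 d pair alone, 14 by the untreated 3 d pair and 8 by the MSB pair. As many as 14 were held by untreated 2 d replicate 2 with untreated 3 d replicate 1, and 11 by untreated 2 d replicate 1 with MSB replicate 2. At the other end, untreated 2 d replicate 2 shared only 1 region with untreated 3 d replicate 2. The mean was 8.67 ± 5.03 (SD, n = 3) regions for pairs within a condition and 5.08 ± 3.99 (SD, n = 12) for pairs across conditions, a difference of 3.58. Over the 15 groupings of the 6 libraries into 3 pairs the exact permutation test (two-sided) gave p = 0.267, where the smallest p possible is 0.0667. No preference for pairs of the same condition was detectable with these 6 libraries. The value moved when 1 library was left out, which also turns some regions of 3 libraries into regions of 2. It was 11.5 without untreated 2 d replicate 1, 9.13 without untreated 2 d replicate 2 and 2.25 without untreated 3 d replicate 1. It fell to 0.75 without untreated 3 d replicate 2, 0.63 without MSB replicate 1 and 1.25 without MSB replicate 2.

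**Figure D2:**
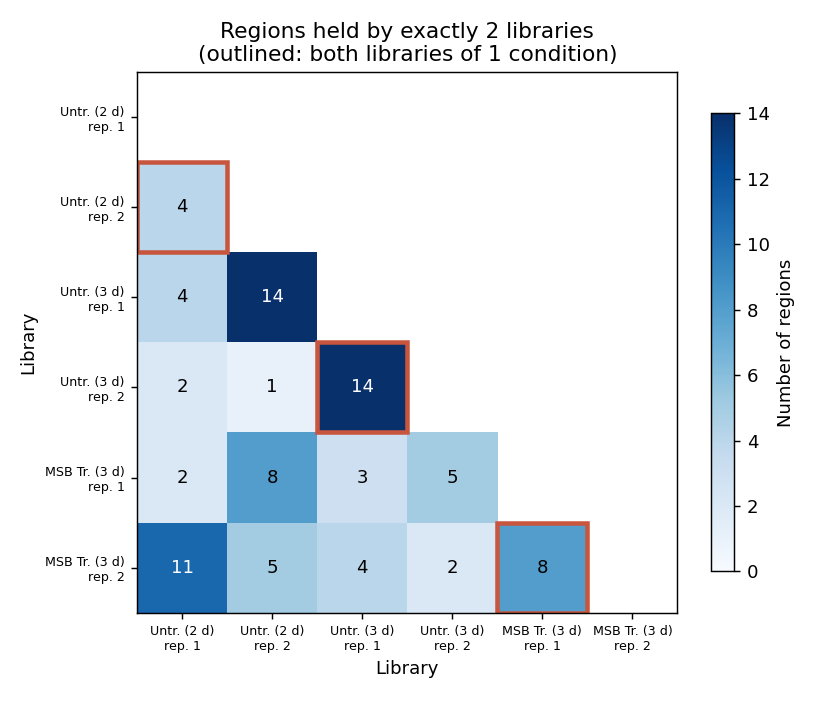
Number of regions held by exactly the 2 libraries named on the axes, for all 15 pairs, with the 3 pairs of the same condition outlined in red. The darkest cells, with 14 regions each, are the untreated 3 d pair and the cross-condition pair of untreated 2 d replicate 2 with untreated 3 d replicate 1, and the untreated 2 d pair has 4.

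Most of these peaks sat near the bottom of their own list. The score is the peak caller's value on that library's normalized track, and it was turned into a percentile, the share of the peaks in the same list that score no higher. Peaks in regions held by 1 library had median percentiles of 17.3 and 13.8 in the untreated 2 d libraries, 14.2 and 13.5 in the untreated 3 d libraries, and 5.52 and 6.15 in the MSB libraries. The 2 MSB libraries were the lowest, as they were in the number of such regions. In regions held by 2 libraries the medians ranged from 12.8 in MSB replicate 2 to 25.4 in untreated 3 d replicate 1. Regions just outside the rule, held by 3 libraries, had medians between 16.9 and 30.2. Regions held by 3 to 5 libraries had medians between 28.2 and 39.3, and those held by all 6 between 67.7 and 71.7. The ranges for 2 and 3 libraries overlapped, so the limit of 2 marked no break. Averaged over the 6 libraries, the median percentile in regions held by 1 or 2 libraries was 15.98 ± 3.28 (SD, n = 6).

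Seen against the cutoff of each list, the margins were small. The median peak of a region held by 1 library scored 1.14 to 1.53 times the lowest score of its list, and that of a region held by all 6 libraries 1.92 to 2.83 times. Of the 344 peaks in the 257 regions, 116 (33.7%) lay at or under the 10th percentile and 18 (5.23%) in the upper 50%. In regions held by all 6 libraries the same shares were 1.79% and 76.2% of 1560 peaks. Of the 18 high peaks, 0 came from an MSB library, and the MSB libraries supplied 38 and 44 of the 344 peaks. Among the 170 regions held by 1 library, 10 lay above the 50th percentile. Among the 87 held by 2 libraries, both peaks were above it in 1.

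**Figure D3:**
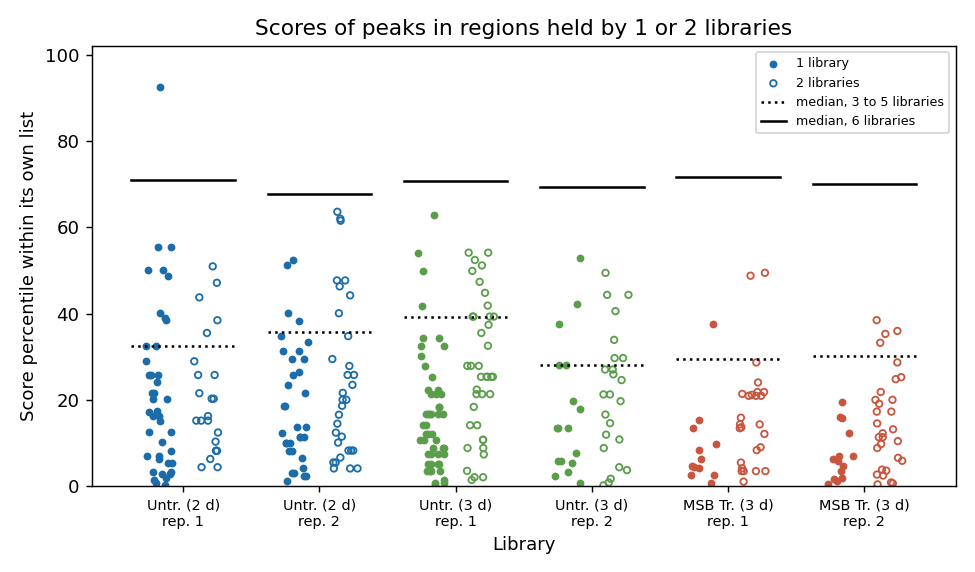
Score percentile within its own list (y axis) of every peak in a region held by 1 library (filled) or 2 libraries (open), for each library (x axis), with the median of peaks in regions held by 3 to 5 libraries (dotted line) and by all 6 (solid line). All points lie under the solid lines at 67.7 to 71.7 except 1 peak of untreated 2 d replicate 1 at 92.4, and the highest points of the MSB libraries reach 49.4 and 38.5.

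The peak that stood apart lay on chromosome VI from 3007821 to 3008080, in untreated 2 d replicate 1 alone. Its score was 46811 where the lowest of that list was 10638, which put it at the percentile 92.4, and the nearest peak of any other library was 48320 bp away. It was 260 bp wide and could not be tied to a gene. The next best regions of that library followed at 55.4 each. One, on chromosome I from 1621181 to 1621380, belonged to *mpdA*, which encodes mannitol-1-phosphate dehydrogenase of mannitol synthesis, and the nearest peak of another library was 25620 bp away. The other, on chromosome VI from 1645641 to 1645940, was not tied to a gene, but a peak of another library began 260 bp away.

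In untreated 3 d replicate 1 the best region of its own reached the percentile 62.8 at *enaA* (AN6642), annotated as a putative potassium-transporting ATPase. It spanned 2708701 to 2708980 on chromosome I, 640 bp from a region of the same promoter that all 6 libraries held with a mean percentile of 52.0. The library had therefore both peaks, and the other 5 libraries had 1 of them. The next were regions on chromosome VIII from 2251461 to 2251720, at 54.1 and 460 bp from a region held by all 6, and on chromosome II from 2648921 to 2649140, at 49.9. Neither was tied to a gene.

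The best regions that untreated 2 d replicate 2 held alone lay on chromosome VIII from 1193981 to 1194280 (percentile 52.5), on chromosome IV from 1831021 to 1831300 at AN7524 (51.2) and on chromosome VII from 4275201 to 4275440 (40.1). In untreated 3 d replicate 2 they lay on chromosome I from 1521281 to 1521540 at AN6009 (53.0), on chromosome VIII from 2429801 to 2430120 (42.1) and on chromosome IV from 2702081 to 2702280 at AN11016, a predicted transmembrane transport protein (37.7). All 4 untreated libraries thus had at least 1 region of their own in the upper 50% of their list. The MSB libraries had none, but they held only 12 and 14 such regions. Over all 170 regions of 1 library, 10 (5.88%) lay in the upper 50%, so few would fall there among so small a number. MSB replicate 1 reached 37.5 on chromosome I from 3295601 to 3295820, then 15.5 on chromosome VII from 102661 to 102940 and 13.5 on chromosome III from 3290421 to 3290620. That last region lay at AN8642, a predicted oxidoreductase, 280 bp from a region held by all 6 libraries whose mean percentile was 99.6. MSB replicate 2 reached 19.6 on chromosome VII from 3518881 to 3519240, 16.2 on chromosome III from 3180241 to 3180700 and 15.7 on chromosome III from 522381 to 522620 at AN4929.

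Only 1 region held by 2 libraries was in the upper 50% of both lists. It lay on chromosome VI from 2686141 to 2686480 at AN2823, a predicted ion channel, and reached 62.0 in untreated 2 d replicate 2 and 54.1 in untreated 3 d replicate 1. Next by mean percentile came AN6398 on chromosome I from 307661 to 307920, with 44.2 in untreated 2 d replicate 2 and 48.8 in MSB replicate 1, and AN0483 on chromosome VIII from 3415621 to 3415900, with 47.1 in untreated 2 d replicate 1 and 44.8 in untreated 3 d replicate 1. In each of these the 2 libraries ranked the region alike, and each joined libraries of different conditions. Others were ranked unequally. AN5401 on chromosome V from 2928861 to 2929280 stood at 61.5 in untreated 2 d replicate 2 and at 24.1 in MSB replicate 1. The region on chromosome III from 3326001 to 3326320 stood at 47.7 and 21.2 in the same libraries, and the one on chromosome I from 2540181 to 2540520 at 25.8 in untreated 2 d replicate 2 and 52.4 in untreated 3 d replicate 1. Both untreated 2 d replicate 1 and MSB replicate 2 held *didB*, a putative vacuolar protein sorting gene, on chromosome VIII from 511261 to 511500 (35.5 and 36.0), and AN1509 on chromosome VII from 1011541 to 1012140 (38.5 and 28.7). At 600 bp the AN1509 region was the widest of all 257. Also among the 10 best by mean percentile were a region of the untreated 3 d pair, ranked just after AN0483, and another of the MSB pair. Both are given below.

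Peaks had to overlap for a region to count as held by 2 libraries, and pairs that did not overlap became separate regions, so how closely the peaks of such a region lay is largely set by the choice and is given as a description. Their summits were 40 bp apart at the median (quartiles 20 and 100 bp) in the 87 regions, and 71 of them (81.6%) had summits within 100 bp. For pairs of peaks in regions held by all 6 libraries the median was 20 bp and the share 88.3%. The smaller peak was covered by the other to 92.9% at the median, and 82 of the 87 (94.3%) overlapped by at least 50% of the smaller peak. The percentiles of the 2 peaks differed by 11.2 at the median and by up to 60.1, the latter on chromosome III from 3418721 to 3419040, with 63.6 in untreated 2 d replicate 2 and 3.53 in MSB replicate 1.

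The 8 regions that both MSB libraries and no untreated library held were of low rank. The highest lay on chromosome VII from 2592241 to 2592660, with 49.4 and 24.8 in replicates 1 and 2, and 740 bp from a region held by all 6 libraries. AN5768 on chromosome V from 1761321 to 1761740, whose orthologues act in actin cytoskeleton organization and inositol lipid signalling, had 21.0 and 35.3. The remaining ones included AN5568, a putative F-box protein, on chromosome V from 2385201 to 2385580 (21.9 and 0.46), and *ubi4*, the polyubiquitin gene, on chromosome VII from 2516241 to 2516580 (3.53 and 2.51). Weakest was the region from 722101 to 722440 on chromosome VII at AN1418, whose orthologues are glucosamine-6-phosphate deaminases, with 1.10 and 0.91. It lay beside a second region of the same promoter that both MSB libraries and untreated 2 d replicate 1 held. The other 3, on chromosome III from 319001 to 319420 (21.4 and 17.3), chromosome V from 846821 to 847220 (14.3 and 20.0) and chromosome VII from 2569681 to 2570020 (8.39 and 10.5), were not tied to a gene, nor was the highest one.

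Of the 14 regions held by the untreated 3 d pair alone, the highest lay on chromosome V from 609441 to 609800 (39.3 and 49.4 in replicates 1 and 2), without a gene. Next came AN2884 on chromosome VI from 2502341 to 2502660 (39.3 and 24.6) and AN9100 on chromosome VI from 430761 to 431120 (32.6 and 29.7). AN4218 on chromosome II from 1711121 to 1711560, whose orthologues are translation elongation factors, had 18.4 and 21.3, and AN5318, a putative non-ribosomal peptide synthetase, on chromosome V from 3164761 to 3165120, had 25.4 and 8.87. Most of the regions named here ranked higher in replicate 1. At AN2238 on chromosome VII from 3290841 to 3291140 the gap was widest, with 41.9 and 0.22. Of the regions without a gene, others lay on chromosome I from 1881181 to 1881420 (3.59 and 44.3) and on chromosome II from 1882481 to 1882820 (39.3 and 11.97). Chromosome IV had such a region from 1197881 to 1198240 (27.9 and 21.3), and chromosome III from 3288881 to 3289200 (27.9 and 4.43).

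The untreated 2 d pair held 4 regions alone. The best lay on chromosome IV from 1365961 to 1366260, with 51.0 and 14.5 in replicates 1 and 2, in the promoter windows of both AN6995 and AN6996. AN4984, a putative cyclin-dependent protein kinase, on chromosome III from 374321 to 374580, had 16.3 and 46.3, and AN10370 on chromosome VI from 2239441 to 2239760 had 43.8 and 4.15. The region on chromosome VI from 933701 to 934120 was not tied to a gene and had 8.25 and 20.0. In each of the 4, 1 replicate ranked the region at 16.3 or lower. The median of the mean percentile was 19.6 in the 26 regions held by 1 condition and 21.3 in the 61 that joined conditions.

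In width the regions were narrow. Peaks in regions held by 1 library had medians of 220 to 240 bp in the 6 libraries, and those held by 2 libraries 240 to 260 bp, where peaks in regions held by all 6 had medians of 380 to 520 bp. No peak in these regions was under 200 bp, and 93 of the 344 peaks (27.0%) had exactly that width, against 2.31% of the peaks in regions held by all 6. As a whole, the 257 regions spanned 200 to 600 bp with a median of 260 bp, those held by 3 libraries 320 bp and those held by all 6 600 bp at the median. A merged region grows with the number of peaks in it, so single peaks are the fairer comparison.

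**Figure D4:**
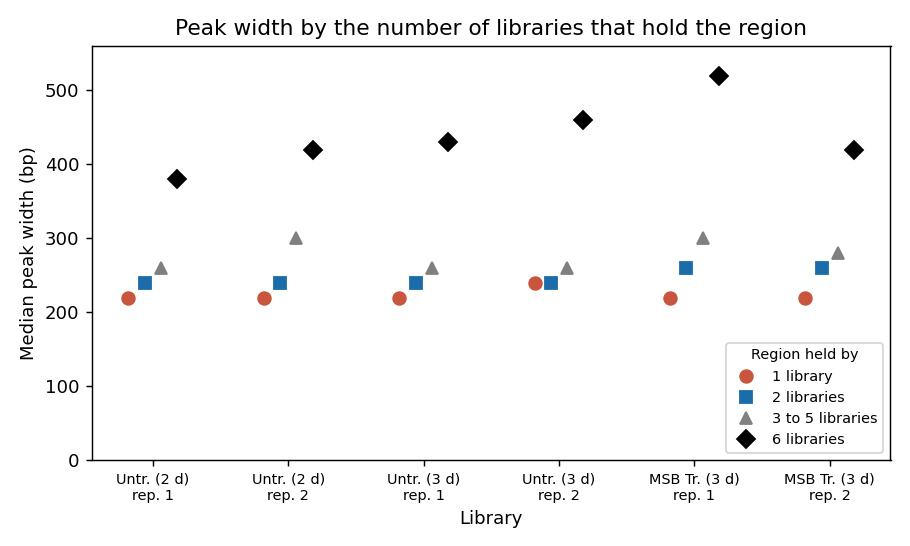
Median width of a peak in bp (y axis) in each library (x axis), by the number of libraries that hold the region in which the peak lies. Peaks in regions of 1 or 2 libraries stay between 220 and 260 bp in every library, and those in regions of all 6 libraries lie between 380 and 520 bp.

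Most of these regions lay many kb from the regions that all libraries shared, as did most regions held by 3 to 5 libraries. The gap to the nearest region held by all 6 libraries was 39320 bp at the median, with quartiles of 13760 and 89000 bp, and ranged from 20 to 489660 bp. Regions of 1 library had a median of 40060 bp and regions of 2 libraries 34900 bp. The corresponding values were 18520 bp for 3 libraries, 33540 bp for 4 and 37030 bp for 5, so the distance did not change steadily with the number of libraries. From a region held by all 6 to the next such region the median gap was 25890 bp, and 10% lay within 1000 bp. Within 1000 bp lay 16 of the 257 regions (6.23%, Wilson 95% interval 3.87 to 9.87%, which covers counting error only), beside 12 of the 200 regions held by 3 to 5 libraries (6%). By library, 5 of the 34 regions of untreated 2 d replicate 2 and 4 of the 51 of untreated 3 d replicate 1 that were their own lay that close, and 1 or 0 in each of the others. Beyond 100 kb lay 59 of the 257 (23.0%) and 39 of the 200 (19.5%).

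The 6 nearest regions, of which 3 tied at a gap of 100 bp, differed in rank. A gap of 20 bp separated the region on chromosome II from 3549661 to 3549860 (untreated 2 d replicate 2, percentile 2.30) from a region at the same gene, AN3627, that all 6 libraries held at a mean percentile of 95.3. Another 20 bp gap was found on chromosome II from 423601 to 423840 (untreated 2 d replicate 2, 33.4). On chromosome VII from 2594201 to 2594460 (untreated 3 d replicate 1, 3.59) the gap was 80 bp. It was 100 bp on chromosome VI from 2428221 to 2428440 (untreated 2 d replicate 1, 3.38) and at AN10977 on chromosome IV from 2249161 to 2249440, which the untreated 3 d pair held at 14.2 and 1.77 beside a region at a mean of 62.3. The last, with the same gap of 100 bp, lay on chromosome VI from 2958341 to 2958700 and reached 15.2 in untreated 2 d replicate 1 and 44.3 in untreated 3 d replicate 2. Of the 6, then, 4 stayed under the percentile 15 in each library that held them and the other 2 reached 33.4 and 44.3.

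The 5 farthest regions lay in stretches where no region held by all 6 was near. On chromosome II, AN3480 from 4040781 to 4041040 (untreated 2 d replicate 2, percentile 25.8) was 489660 bp away, and the region from 3903541 to 3904040 (untreated 2 d replicate 2 and untreated 3 d replicate 1, 23.5 and 37.4) was 352420 bp away. On chromosome VII, MSB replicate 2 alone held the regions from 3491621 to 3491840 (1.14) and from 3518881 to 3519240 (19.6), at 337020 and 309620 bp. The region on chromosome I from 13161 to 13440 (untreated 3 d replicate 1, 8.88) was 296200 bp away and was the first region of that chromosome. Of the 16 outermost regions of the 8 chromosomes, 7 (43.8%) were held by 1 or 2 libraries and 5 by all 6. Over all 707 regions these shares were 36.4% and 35.4%, so the 16 show no clear excess.

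**Figure D5:**
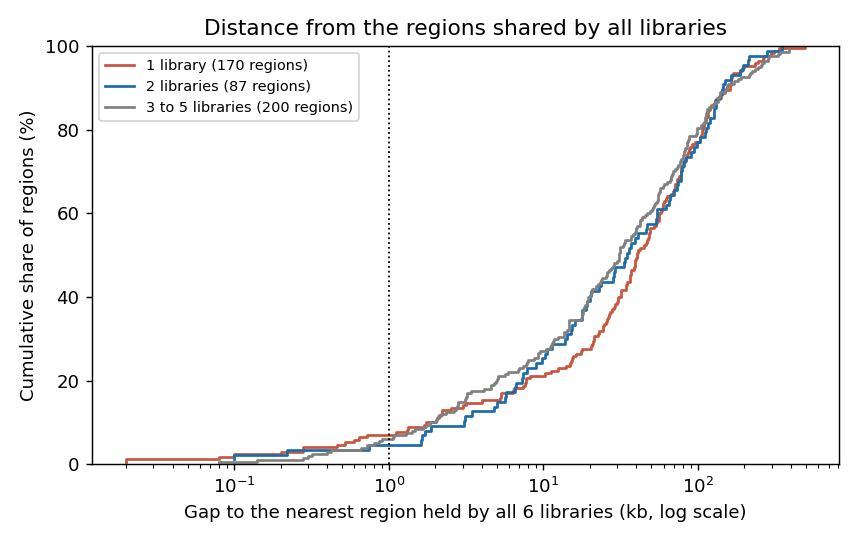
Cumulative share of regions in percent (y axis) against the gap to the nearest region held by all 6 libraries in kb (x axis, log scale), for the 170 regions of 1 library, the 87 of 2 libraries and, for comparison, the 200 of 3 to 5 libraries, with a dotted line at 1 kb. Between 4.60 and 7.06% of the regions lie left of the line, and the medians are 40060 bp, 34900 bp and 30920 bp.

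A missing library seldom had its peak just next door. The nearest peak of any library that did not hold the region was 10200 bp away at the median. It was within 100 bp for 10 of the 257 regions (3.89%) and within 1000 bp for 53 (20.6%). For the 200 regions held by 3 to 5 libraries these counts were 0 and 22 (11%). Fewer libraries are missing from those regions, so fewer peaks could count as near, and the shares are not a like comparison. Joining peaks up to 100 bp apart accordingly left 249 regions with 1 or 2 libraries.

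All 8 chromosomes carried such regions. Their share of the regions of a chromosome was lowest on chromosomes II and VI, with 26 of 83 (31.3%) on each, and highest on chromosome V, with 36 of 83 (43.4%), and chromosome IV, with 21 of 49 (42.9%). On chromosome IV only 28.6% of the regions were held by all 6 libraries, and on chromosome III 45.8%. In number, chromosome VIII led with 45 of its 121 regions.

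Genes could be tied to 114 of the 257 regions (44.4%), namely 62 of the 170 held by 1 library (36.5%) and 52 of the 87 held by 2 (59.8%). The share was 62.0% for regions held by 3 to 5 libraries and 66.4% for those held by all 6. A gene was tied to a region when the peaks of the region overlapped its promoter window, 1000 bp upstream to 50 bp downstream of the start of transcription (TSS), as placed in the coordinates of the lists. Genes came only from the study's own list of genes with peaks in their promoters, so a region without a gene here may still lie near one. A gene with few listed peaks was also harder to place. The lower share among regions of few libraries may thus come in part from the placing, which was not tested. In all 121 genes were tied to these regions, 112 of them to no other kind of region. Another 9 also had a region held by 3 or more libraries, and for 5 of them it was held by all 6.

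Among developmental regulators, 2 of the 4 placed genes on a list of 21 sporulation and velvet genes had only regions of this kind. They were *flbD*, a Myb-type regulator of conidiophore formation, and *vosA*, a velvet protein needed for spore viability and trehalose content. At *flbD*, on chromosome VIII from 4060261 to 4060500, untreated 2 d replicate 1 alone had a peak, at the percentile 25.8. At *vosA* there were 2 separate regions on chromosome VII, from 2385601 to 2385980 with 4.44 in untreated 2 d replicate 1 and 12.3 in MSB replicate 2, and from 2386401 to 2386600 with 17.96 in untreated 3 d replicate 2. Each condition thus had a peak near *vosA* in 1 of its 2 libraries. The peaks of untreated 2 d replicate 1 and MSB replicate 2 overlapped, with summits at 2385931 and 2385771. The peak of untreated 3 d replicate 2 lay in the other region. With 1 library each, these positions cannot be assigned to conditions. The other placed genes of the list were *veA*, held by 3 libraries, and *velB*, held by all 6. Only 6 of the 21 genes were found in the study's list. The study also counts *fkhB*, *nsdD*, *silG* and *atfB*, which are among the 21, as AtfA targets, and they were not placed here. The 2 of 4 is therefore no share of the sporulation regulators with peaks.

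Of 13 placed kinase and phosphatase genes, 2 fell here, 4 had a region of 3 to 5 libraries and 7 one of all 6. The former were *pbsA*, which encodes the kinase directly upstream of HogA, and *isr1*, a putative serine/threonine kinase. Untreated 2 d replicate 1 had a peak at *pbsA* at 20.3 and MSB replicate 2 at 21.9, on chromosome VIII from 2033881 to 2034180. At *isr1*, on chromosome VI from 2133821 to 2134100, the values were 8.29 in untreated 2 d replicate 2 and 11.4 in MSB replicate 2. In both genes 1 library of untreated 2 d and 1 of MSB had the peak, and no untreated 3 d library did. That was the commonest combination of conditions, with 26 of the 87 regions held by 2 libraries, so it does not set these genes apart. By contrast *hogA* itself had a region held by all 6 libraries. Of 4 placed redox genes, 0 fell here.

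Of 13 placed genes of central carbon and reserve carbohydrate metabolism, 3 fell here and 7 had a region of all 6 libraries. Besides *mpdA* these were *pgkA*, the glycolytic phosphoglycerate kinase, and *acuG*, fructose-1,6-bisphosphatase of gluconeogenesis. Both *pgkA* (chromosome VIII from 1063361 to 1063640, 12.4 and 33.3) and *acuG* (chromosome V from 2253841 to 2254140, 4.15 and 38.5) were held by untreated 2 d replicate 2 and MSB replicate 2. In each, the MSB library ranked the peak higher within its list.

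Of 6 placed genes for chromatin, transcription and translation, 4 had only regions of this kind. The histone gene *H4.1* had a peak in untreated 3 d replicate 1 alone, at 27.9 on chromosome VIII from 2629821 to 2630020. *phoW*, whose orthologues bind methylated histones, had one of 54.1 in untreated 3 d replicate 1 and 8.88 in MSB replicate 2 on chromosome V from 2375101 to 2375320. The RNA helicase gene *helA* had 1.48 and 3.87 in the same 2 libraries, on chromosome VIII from 2138801 to 2139020, and *ubi4* had its MSB pair given above. Of these genes only *phoW* had a peak in the upper 50% of a list. The 5 lists hold genes the study discusses and others, and only genes with listed peaks in the study could be placed. Over all 433 placed genes, 112 were tied to regions of this kind alone. The lists were chosen with earlier results known, so these counts say nothing about how often such genes fall among the regions.

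Some promoters carried a region of this kind beside a broader shared one, or more than 1 of them. Besides *enaA*, AN8642, AN3627 and AN10977, the fifth gene with a region held by all 6 was AN1220, where MSB replicate 2 alone had a peak at 4.78, on chromosome VIII from 1153421 to 1153620, 520 bp from the shared region at a mean of 68.0. At *slmA*, a predicted phospholipid-binding protein, 2 regions lay on chromosome V, from 2021301 to 2021500 with 2.30 in untreated 2 d replicate 2 and from 2022141 to 2022360 with 14.2 in untreated 3 d replicate 1 and 9.05 in MSB replicate 1. At AN1509 a second region from 1012481 to 1012740 was held by untreated 2 d replicate 1 alone at 25.8. These genes, AN10260 and the region with the widest gap in percentile above were chosen after their values were seen. AN10260, annotated as an intracellular protein induced by menadione stress, had a region on chromosome VII from 2831321 to 2831660. Untreated 2 d replicate 2 held it at 6.68 and untreated 3 d replicate 1 at 35.5, and 0 of the 2 MSB libraries did. Absence from both MSB lists was the usual case, since 183 of the 257 regions (71.2%) came from untreated libraries alone.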

How the data were processed

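ChIP-seq was done on the FLAG-tagged AtfA strain with 6 libraries in 3 conditions. Reads were single, of 75 bp. The authors mapped them to the JGI MycoCosm genome of *A. nidulans* (Bowtie2), dropped duplicates (Picard), scaled coverage to RPKM (deepTools) and ran MACS2 on the track of each library. The deposited score of a peak is whole and differs in scale between lists, so it was used only within a list, as a percentile or against the list's lowest score. Fold enrichment, p and q are 0 throughout and were left aside. Positions are in steps of 20 bp and are given 1-based.

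Regions, counts and tests were computed in Python 3.11.15 (numpy 2.4.6, scipy 1.17.1), and merging and both tests were checked on simulated lists. Tests were exact over libraries. Genes were placed through the peak-centre distances that the study lists for 502 genes. For 302 genes with at least 3 distances, exactly 1 set of regions in the genome gave the listed pattern, and all 302 lay on the right chromosome and 0 of 294 neighbouring pairs were out of the gene order of the RefSeq table (assembly ASM1142v1, used for names, order and a check of spacing only). Another 131 were placed between these neighbours where 1 set of regions was possible. There, 3 were dropped because their spacing to the nearest placed gene differed by over 2000 bp from that table, and 41 with several possible sets were left out. Of the 114 regions tied to a gene, 99 rest on genes placed between neighbours, 53 of the 114 on genes with 1 listed distance.

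Regions were named by a rule: the 3 best regions that each library held alone, up to 10 held by both libraries of 1 condition alone, the 10 best of 2 libraries, the 5 nearest to (6 with a tie) and the 5 farthest from a region held by all 6, and genes of the 5 lists. Members and lists were chosen with earlier results of these data known. Alternatives were joining only peaks that overlap by 50% or more of each, merging up to 100 bp, the 300 best peaks of each list, leaving out each library, a replicate block, percent of peaks, percentile of width and a gap of 500 bp.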

Additional observations from a re-analysis of the deposited data

How the results depend on the processing

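The directions of both comparisons between libraries held under every alternative tried, and none of their p values passed 0.05, a level that none of these designs can reach. For single-library regions the difference of MSB minus untreated libraries lay between -32.2 and -17.8 when 1 library was left out, was -33 with an overlap of at least 50% and -12 (exact p = 0.0667, the smallest possible) with the 300 best peaks, and was -4.90 percentage points as a percent of each library's peaks. For pairs within a condition against pairs across conditions the difference lay between 0.63 and 11.5 when 1 library was left out. The labels do not say that a replicate number marks a shared culture or day. Presence in replicate 1 minus replicate 2 correlated between conditions at -0.05, -0.21 and -0.04 across the 707 regions. Regions held by all 6 libraries show no difference there, so these values cannot settle whether the numbers pair the samples. The main tests used no pairing. With the replicate block the differences were -23 (exact p = 0.111, 9 choices) and 5.83 (exact p = 0.5, 6 groupings). The number of regions held by 1 or 2 libraries was 333 with an overlap of at least 50%, 249 with merging up to 100 bp, between 235 and 286 when 1 library was left out and 149 with the 300 best peaks, where fewer peaks enter. There the mean of the median percentiles was 46.1, since the lower peaks are gone by construction, and as a percentile of width it was 23.7. The share within 1000 bp of a region held by all libraries was 10.2% with an overlap of at least 50%, and the cause was not tested. Of the 257 regions, 56 (21.8%) kept a peak among the 300 best of a list. Of the 57 regions named by rank or place, 4 passed 2 libraries with merging up to 100 bp and 2 changed their number of libraries with an overlap of at least 50%. With the 300 best peaks 24 of them had no peak left and 15 of the remaining 33 changed their number. Depth is unknown, so a peak absent from a list cannot be read as an absence of binding.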
